A study of Mus musculus with 2 samples.

Results

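Long noncoding RNA genes other than the few very abundant or imprinted ones were described in the mouse adrenal gland. The members are annotated genes of 6 GENCODE M21 types (lincRNA, antisense, processed_transcript, sense_intronic, sense_overlapping and bidirectional_promoter_lncRNA) with at least 3 reads in each of 2 libraries. Malat1, Neat1, Meg3, Rian, Mirg, Nespas and Gm26917 were left out by name, and 4 of these 7 (Malat1, Neat1, Meg3 and Gm26917) would otherwise have passed. The rule found 205 members among 10150 annotated genes of these types, of which 1587 had a read in either library. The libraries detected 9942 nuclear genes at this minimum, and 9553 of them were protein coding. The members were thus selected on their read counts in both libraries, so their levels are described with no test against other genes. A later comparison between the libraries uses the same counts, and the minimum of 3 reads in each limits the differences it can show.

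Whole transcripts were read as long molecules from the adrenal gland of B6CASTF1/J mice (females, age 2 months), a first-generation cross between the C57BL/6 and CAST backgrounds. The labels give 1 group, no treatment and no second genotype, and they name total RNA as the material. Its 2 libraries are biological replicates 1 and 2. The tissue samples carry animal numbers 3 and 4, but the number 3 stands on each library and the donor identifier is shared, so whether these are 2 animals was not settled. An RNA input of 1 µg is stated for replicate 1, and none was found for replicate 2. Replicate 1 held 1277310 reads and replicate 2 held 520388, of which 1209457 and 502655 fell on annotated nuclear genes. Levels are CPM, counts scaled to 1e6 of the latter reads. CPM is not divided by length, so a level compares a gene between libraries and the order between genes is an order of read numbers. All 19 genes of a steroid synthesis list and 8 of 8 chromaffin genes of the medulla were detected. The same held for 6 of 6 adipocyte, 5 of 5 endothelial, 5 of 5 macrophage and 4 of 4 red blood cell markers, against 1 of 4 Schwann cell, 0 of 4 lymphocyte and 0 of 4 kidney markers. The chromaffin list summed to 12563 CPM in replicate 1 and 7761 in replicate 2, and the steroid list to 77898 and 95057. In whole tissue, fewer cells of a type and less RNA per cell cannot be told apart.

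Long noncoding RNAs are transcripts over a set length that are not translated into a known protein. Many are spliced and polyadenylated like messenger RNA. Some act in the nucleus on chromatin, as Xist does in silencing one X chromosome, some carry small nucleolar RNAs (snoRNAs) or microRNAs in their introns, and many lie opposite a coding gene or start beside one. For most of the genes below no function is known.

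Sequences of the members show 3 kinds of transcript features. The first are mature microRNAs encoded within members, shown because they are the known products of their host loci. Of the 9 members that hold a microRNA gene, 4 had mature sequences in the RefSeq table (build GRCm38.p6), and 6 arms are given with the seed, bases 2 to 8, in capitals. Dleu2 carries miR-15a and miR-16-1, whose 5p arms share the seed, and Mir22hg carries miR-22.
miR-15a-5p in Dleu2: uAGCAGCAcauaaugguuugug
miR-16-5p in Dleu2: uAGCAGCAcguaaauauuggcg
miR-22-3p in Mir22hg: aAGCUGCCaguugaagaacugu
miR-22-5p in Mir22hg: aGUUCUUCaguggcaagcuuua
miR-1247-5p in Dio3os: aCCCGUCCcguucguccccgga
miR-6516-5p in Snhg20: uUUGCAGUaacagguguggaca

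The second kind is a new intron. Gm28382, a lincRNA gene on chromosome 1 (91483024 to 91484774, plus strand, mm10), had no read in an annotated form. Its most-read form joins 3 exons and uses an intron of 188 bases that M21 does not hold (chr1:91483511-91483698, plus strand). The stretch below gives 15 exon bases on each side in capitals and the intron in lower case. It starts with GT and ends with AG, the usual intron borders.
Gm28382 new intron: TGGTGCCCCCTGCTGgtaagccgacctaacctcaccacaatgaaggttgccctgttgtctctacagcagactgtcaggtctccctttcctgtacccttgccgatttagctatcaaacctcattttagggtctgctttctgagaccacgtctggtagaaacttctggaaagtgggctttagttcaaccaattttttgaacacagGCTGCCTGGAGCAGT

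The third kind is the start of snoRNA host genes. Genes of the protein synthesis machinery and many snoRNA hosts are known to begin with a run of pyrimidines, a 5′ terminal oligopyrimidine tract. RefSeq gives 22 starts for 17 of the 19 members that hold a snoRNA gene. The 4 with an unbroken run of at least 8 C or T letters and a start of Gas5, the host gene with the most reads among those of RefSeq biotype lncRNA, are shown as 30 bases, of which 10 precede the annotated start, with the longest run in capitals. RefSeq gives Gas5 another start, whose longest run is 3.
Snhg9: aCTTTCCCTCgccgaagccgcgccctacac
Snhg1: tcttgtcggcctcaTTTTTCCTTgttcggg
2410006H16Rik: cgccgTCTTTCTCTgcggccatcatgggat
1810032O08Rik (Snhg16): gcgcaagcgcgatctcgTCCTTTCCgaggt
Gas5: ccatctcagCCTTTCggagctgtgcggcat

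A run of at least 7 pyrimidines lay in this window in 9 of the 22 host starts (40.9%), against 17.9% of all 32851 RefSeq starts. A run of at least 8 lay in 4 of 22 (18.2%), against 11.2% of all starts, and a run of at least 10 in 0 of 22, against 4.77%. Many of these runs lay beside the annotated start. Of the 5 shown, those of 2410006H16Rik and Gas5 hold the first transcribed base. A run of at least 7 held that base in 2 of 22 host starts (9.09%), against 5.28% of all starts. The strand of transcription alone was searched. These matches describe letters and are no measurement of translation.

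Together the members held 5792 reads in replicate 1 and 1950 in replicate 2. In replicate 1 this was 0.479% of nuclear gene reads (exact 95% binomial bounds 0.467 and 0.491%). The share in replicate 2 was 0.388% (0.371 and 0.406%). The summed level was 4334 ± 643 CPM (SD, n = 2). The median member stood at 10.2 CPM (quartiles 6.29 and 17.9), below the 36.5 CPM of the median detected coding gene (15.8 and 86.9). Of the 205, 105 reached a mean of 10 CPM, 17 reached 50 CPM and 9 reached 100 CPM. The 10 highest members held 42.1% of member reads in replicate 1 and 31.2% in replicate 2. Reads were thus concentrated in few genes, and most members rested on few reads, with a median of 12 in replicate 1 and 5 in replicate 2.

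The minimum of 3 reads lay inside a dense range of counts. Exactly 3 reads were found for 63 members in replicate 2, 12 in replicate 1 and 9 in both. Outside, 74 genes had 3 or more reads in replicate 1 but 2 in replicate 2, and 9 the reverse. The undetected gene with the most reads was the lincRNA gene AC154200.1, with 115 reads in replicate 1 and 0 in replicate 2. With 3 counts as the limit, that 0 is compatible with a level of up to 5.97 CPM, and a 0 in replicate 1 with up to 2.48. Next outside the minimum were Gm42846 with 26 and 1, D130009I18Rik with 22 and 2 and Gm44170 with 22 and 1 reads.

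The type labels were checked against RefSeq, which held 153 of the 205 members. RefSeq calls 135 of them lncRNA and 1, Tsix, antisense RNA. It calls 11 protein coding and 6 pseudogenes, so 17 members go against the label in that annotation. A further member, AY036118, lies over the annotated ribosomal RNA gene CT010467.1, as does the pseudogene Gm42418 (Rn18s-rs5 in RefSeq). These 18 genes held 38.4% of member reads in replicate 1 and 29.0% in replicate 2. The other 187 summed to 2951 and 2753 CPM. Of the 20 members with the highest mean level, 9 are among the 18.

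**Figure D1:**
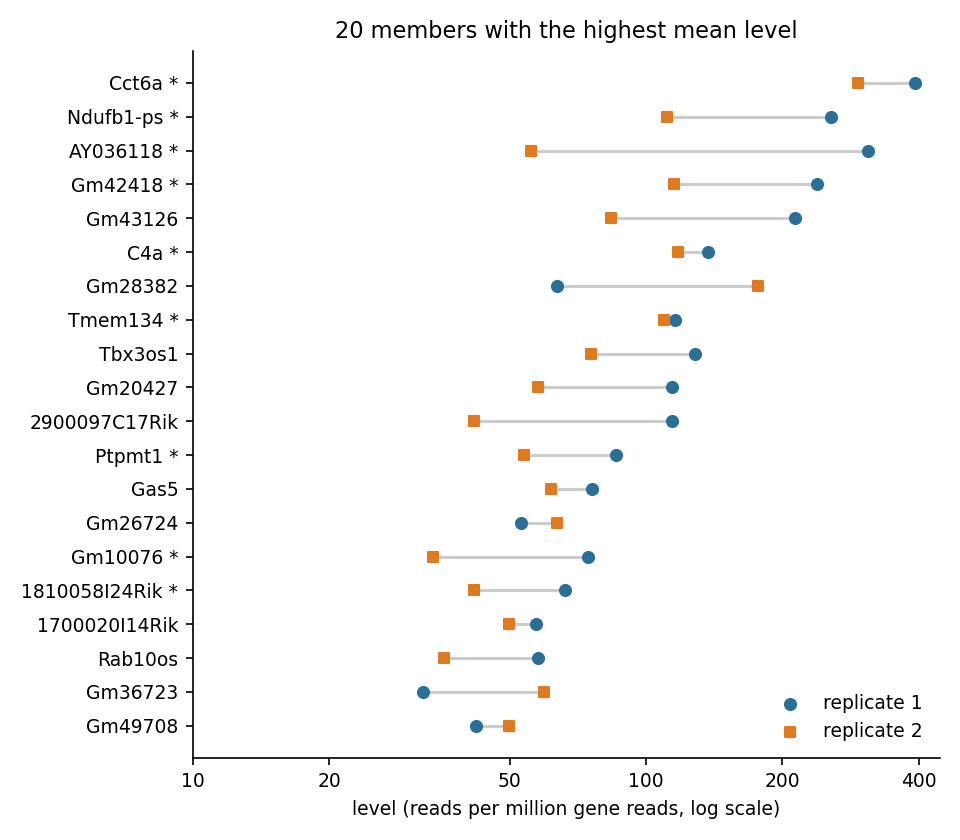
Level of the 20 members with the highest mean, in CPM on a log scale, with circles for replicate 1 and squares for replicate 2. An asterisk marks the 9 that RefSeq calls coding or pseudogene or that lie over a ribosomal RNA gene. Cct6a is highest in both libraries, and the distance between symbols is widest for AY036118.

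Cct6a led the list with 475 reads in replicate 1 and 148 in replicate 2, or 343.6 ± 69.5 CPM (SD, n = 2). It encodes a subunit of the chaperonin that folds actin and tubulin, and M21 types it as processed_transcript. Ndufb1-ps, which RefSeq lists as Ndufb1, a subunit of respiratory complex I, had 309 and 56 reads. Tmem134, a membrane protein gene in RefSeq, had 140 and 55 reads, and Ptpmt1, a phosphatase of mitochondrial cardiolipin synthesis, had 104 and 27. RefSeq thus treats these 4 genes as coding. Genes were matched to RefSeq by name only, and no transcript was compared, so whether the reads are the RefSeq messenger RNA was not tested. Cct6a had 2 and 0 reads on annotated M21 models.

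Among pseudogenes, C4a, a relative of the complement gene C4b, had 166 and 59 reads. Its longest transcript matches C4b at 96.0% identity, and C4b had 148 and 59 reads, so reads may have been assigned to the wrong copy. Gm10076 had 90 and 17 reads and matches the ribosomal protein gene Rpl41, which had 1021 and 259 reads, at 99.5%. Near-identical copies (at least 95% identity over 80% of the longest transcript) were found for 6 members, and the split of reads is uncertain for each. They also include Gm43713 and the mutually similar Gm47547, Gm49708 and AC132253.9. AY036118 had 373 and 28 reads and Gm42418, on the opposite strand of the same locus on chromosome 17, had 288 and 58. These were single-exon reads of annotated models, 661 of member reads in replicate 1 and 86 in replicate 2.

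Among genes that RefSeq also calls lncRNA, Gm28382 and Tbx3os1 had the highest levels after AY036118. Gm28382 had 77 reads in replicate 1 and 89 in replicate 2 (120.4 ± 80.2 CPM). Tbx3os1, which starts near the transcription factor gene Tbx3 on the opposite strand, had 155 and 38 reads (101.9 ± 37.2 CPM). 2900097C17Rik is named Norad in RefSeq, a cytoplasmic RNA known to bind Pumilio proteins. It had 138 and 21 reads (77.9 ± 51.1 CPM), all on annotated models, and a model of 1 exon and 4915 bases took 117 and 13 of them. 1700020I14Rik, known as Oip5os1 or Cyrano, had 69 and 25 reads (53.4 ± 5.17 CPM). 1810026B05Rik, the Chaserr gene beside the chromatin remodeller gene Chd2, had 32 and 13 reads (26.2 ± 0.421 CPM). Lncbate1, named for its expression in brown fat, had 18 and 7 reads (14.4 ± 0.676 CPM), beside an adipocyte marker list at 7835 and 8015 CPM, and whether it comes from fat cells was not tested. Gm20427, which RefSeq did not match and which starts near the retinoid receptor gene Rxrb, had 138 and 29 reads (85.9 ± 39.9 CPM).

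A list named for nuclear and chromatin lncRNA genes, which also holds the cytoplasmic Norad, has 13 genes matched by M21 symbol. Of these, 3 were members, namely Norad, Chaserr and Firre. Oip5os1 was listed by its RefSeq name, so it is not among the 13, but it is the member 1700020I14Rik above. Firre, an X-linked RNA of nuclear organisation, had 6 and 3 reads. Listed genes outside the minimum included Tug1 with 4 and 1, Pvt1 with 1 and 3 and Miat with 1 and 0 reads. Hotair and Rmst had 0 reads in both. From a list of 7 neural lncRNA genes, Peg13 was the only member.

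The X inactivation list gave 2 members of 4. The libraries held 33 and 6 Xist reads (19.6 ± 10.9 CPM), and Tsix, its antisense partner, had 22 and 5 (14.1 ± 5.83 CPM). Jpx had 2 reads in each library and Ftx had 1 and 0. No Xist or Tsix read matched an annotated splice form. All were genomic, the class for models that fit no annotated or new chain of introns. In replicate 1, 32 of the 33 Xist reads lay in a model of 466 bases at the 5′ end of the gene (chrX:103482789-103483254, minus strand). The most-read Tsix model there, of 384 bases with 21 reads, lay on the other strand and ended at the same coordinate (chrX:103482406-103482789). The most-read Tsix model of replicate 2, with 2 of its 5 reads, lay elsewhere (chrX:103466379-103468036). In replicate 2 all 6 Xist reads lay in a model of 1258 bases (chrX:103482789-103484046), which runs past the annotated 5′ end of the gene at 103483254 and lies mostly outside it.

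Of 7 listed imprinted genes, Peg13 and Snhg14 were members. Peg13, transcribed from within an intron of Trappc9 and the sole sense_intronic member, had 12 and 22 reads (26.8 ± 23.9 CPM), all on its annotated single-exon form. Snhg14 is the long host of many snoRNAs and holds the antisense transcript of Ube3a. It had 13 and 5 reads, all in a genomic model of 1198 bases that lies opposite Ube3a exons, just beyond the annotated end of Snhg14. Ube3a itself had 177 and 37 reads. Airn had 13 and 1 reads, H19 had 0 and 1 and Kcnq1ot1 had 1 and 0, so none passed the minimum.

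snoRNA hosts formed the most complete group. Of 18 listed hosts matched by M21 symbol, 11 were members and all 18 had a read. Snhg11, among the 18, is typed protein coding in M21 and could not be a member. Snhg16, listed by its RefSeq name and not among the 18, is the member 1810032O08Rik, with 19 and 3 reads. Gas5, which carries 10 small RNA genes in its introns, had 92 reads in replicate 1 and 31 in replicate 2 (68.9 ± 10.2 CPM). Its most-read model, with 12 exons spliced to 502 bases, took 24 and 10 of these. Snhg5 had 49 and 20 reads (40.2 ± 0.513 CPM) and Snhg20 had 41 and 20 (36.8 ± 4.16 CPM). These 3 hosts lay within 1.5-fold between the libraries.

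Snhg9 had 42 and 6 reads (23.3 ± 16.1 CPM), all on its annotated form, and had the largest log2 ratio in size among the listed hosts that could be tested. Snhg8 had 22 and 12, Snhg3 had 25 and 8, 2410006H16Rik had 20 and 8 and Snhg1 had 13 and 7 reads. Zfas1 had 14 and 5, Snhg15 had 9 and 4 and Snhg17 had 6 and 3. Across all members, 28 of 205 (13.7%) held a small RNA gene, against 1.96% of 9938 undetected genes of the same types. In 23 of them it lay within an intron of an annotated transcript.

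Hosts of microRNAs were fewer. Of 9 listed hosts, Mir22hg and Dleu2 were members. Mir22hg had 25 and 9 reads (19.3 ± 1.96 CPM), and 23 and 9 of them were on annotated forms. Dleu2, the host of the miR-15a and miR-16-1 cluster shown above, had 6 and 5 reads (7.45 ± 3.53 CPM). Dio3os had 7 and 3 reads, while the coding gene Dio3 beside it had 0 in both. Mir17hg and Mir155hg had 0 reads in both libraries. The levels of the mature microRNAs were not measured here.

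Position was not part of the rule except through the gene types, some of which are defined by position. Members lay close to coding genes. Exons of 99 members (48.3%) overlapped exons of a coding gene on the opposite strand, against 21.9% of undetected genes of these types. The start of 78 (38.0%) lay within 1 kb of a coding gene start on the opposite strand, against 12.8%. In contrast, 37 members (18.0%) had no coding gene within 5 kb, against 48.5%. Another 22 (10.7%) overlapped a coding gene on their own strand, against 6.39%, so their reads may belong to it. The types divided into 70 processed_transcript, 68 antisense, 53 lincRNA, 13 bidirectional and 1 sense_intronic gene. No sense_overlapping gene passed. All annotated genes of these types divided otherwise, into 5854 lincRNA, 2959 antisense, 790 processed_transcript and 190 bidirectional genes, with few of the other types. How far this mix of types sets the shares above was not tested. The undetected genes include many with no read, and no test was made of these shares.

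**Figure D2:**
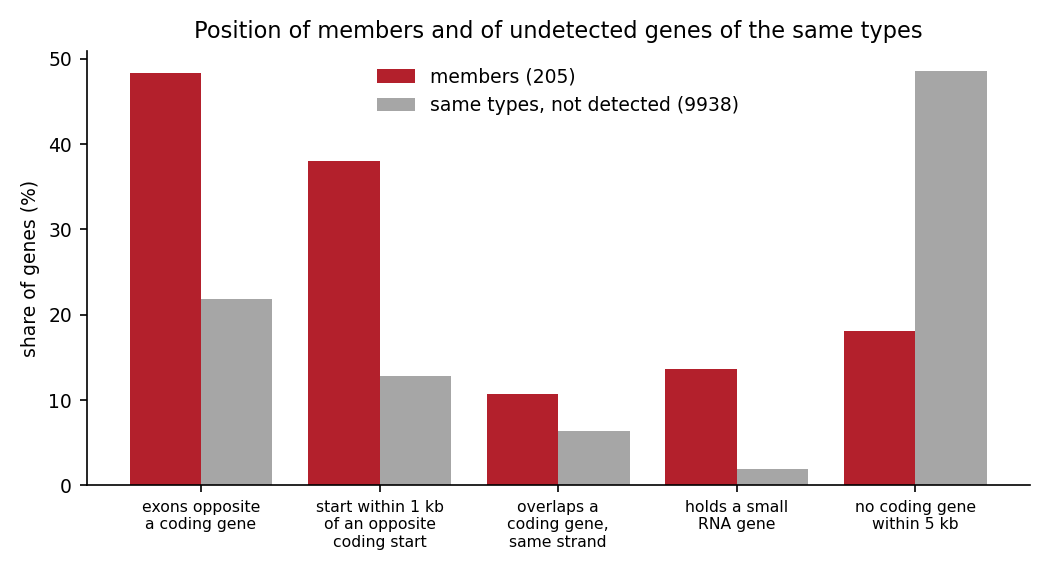
Share of genes (%) in 5 position classes, for the 205 members (red) and 9938 undetected genes of the same types (grey). Classes can overlap. Members are more often opposite or beside a coding gene (48.3% against 21.9% and 38.0% against 12.8%), and undetected genes more often have no coding gene within 5 kb.

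The members' longest annotated transcripts had a median of 1874 bases and 3 exons, with a GC content of 48.9%. Detected coding genes had 3239 bases, 9 exons and 50.2%, and undetected genes of the same types 965.5 bases, 3 exons and 46.8%. Members were thus about as rich in exons as undetected genes and longer by the median.

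The 78 pairs with opposite starts within 1 kb include genes whose exons overlap, such as Cct6a with Psph and Tbx3os1 with Tbx3. In these 78 pairs the coding partner was detected in 57. The member had fewer CPM than its partner in both libraries in 41 pairs and more in 19. Snhg1, with 13 and 7 reads, faced Slc3a2, an amino acid transporter subunit, with 816 and 323. Gas5, with 92 and 31, faced Zbtb37 with 2 and 1. Gm9899, beside the potassium channel gene Kcnk3, had 5 and 7 reads against 1357 and 1790. In replicate 1, 2 of its 5 reads lay in a genomic model recorded with a length of 1 base. Models of 1 base were likewise most-read or tied in replicate 1 for Gm26512, Gm47547, Gm11613 and AW112010. Members in such pairs therefore lay on either side of their neighbours. No member lay opposite a gene of the steroid synthesis list or started within 1 kb of its start on the opposite strand.

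Several members stand beside developmental transcription factor genes, a group named here after the values were seen. Hoxd3os1 had 27 and 5 reads, Hoxb5os 24 and 6, and Hand2os1 19 and 8. The opposite genes had 2 and 2 (Hoxd4), 11 and 7 (Hoxb5) and 34 and 7 (Hand2). 1010001N08Rik, opposite Gata6, had 15 and 8 against 78 and 55. Tbx3os1 had 155 and 38 against 90 and 60 for Tbx3. The member had more reads than the opposite gene in both libraries for Hoxd3os1 only.

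Of the 99 members with exons opposite a coding gene, the partner was detected in 77. The member was above it in both libraries in 24 and below in 55. By reads relative to the opposite coding gene the highest were Xist, Gm17276, Fcnaos, Gm16201, C430014B12Rik and 2310009A05Rik. Tsix is not typed as coding, so it is not the gene that Xist is set against here. Gm17276, opposite the receptor gene Notch3, had 53 and 22 reads against 2 and 0. 2310009A05Rik, the coding gene Pigbos1 in RefSeq, had 49 and 14 against 1 and 5 for Pigb. Fcnaos, Gm16201 and C430014B12Rik had at most 6 reads in a library, and their partners had 0. The largest ratios thus arose where the coding gene was barely read.

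**Figure D3:**
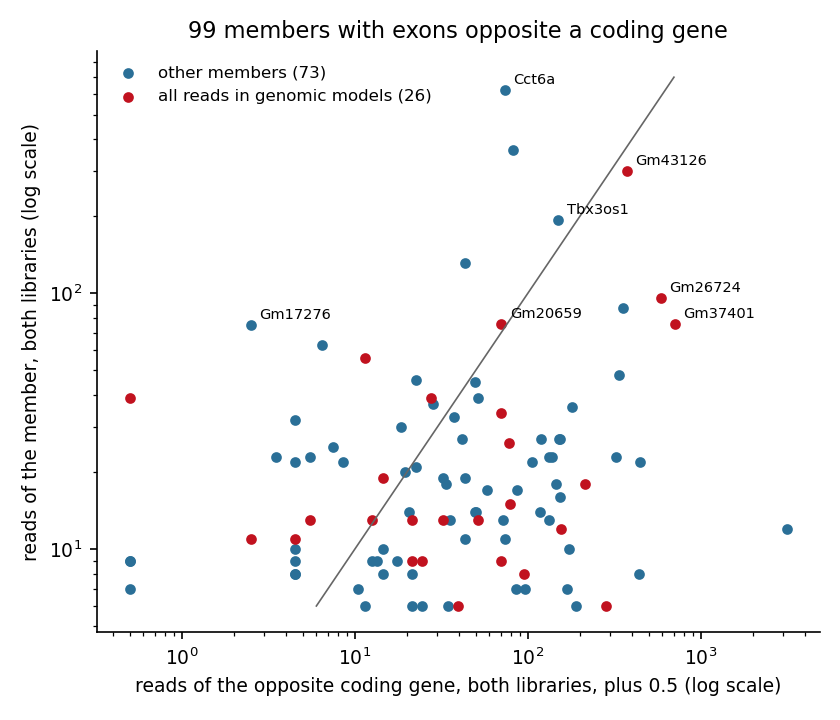
Reads of 99 members (vertical axis) against reads of the coding gene whose exons lie opposite (horizontal axis, plus 0.5 reads), summed over both libraries on log scales. The line marks equal reads. Red points are the 26 members with every read in the genomic class, of which Gm43126, Gm20659, Gm26724 and Gm37401 are named, and they lie on both sides of the line.

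The class of the models, which the authors' software assigned, showed how well the annotation covers these genes. Known models are M21 transcripts, and incomplete splice matches (ISM) are fragments of their intron chains. Models new in catalog (NIC) recombine known splice sites and those new not in catalog (NNC) use a new one, by the usual definitions. Annotated models held 49.0% of member reads in replicate 1 (exact 95% binomial bounds 47.7 and 50.3%) and 43.9% in replicate 2 (41.7 and 46.2%). Genomic models held 23.5% (22.4 to 24.6%) and 21.6% (19.8 to 23.5%). Detected coding genes had 77.0% and 82.1% of reads on annotated models and 4.31% and 2.25% on genomic ones. Those below the upper quartile of member levels had 51.7% and 61.2% on annotated models, near the 49.0% of all members in replicate 1 only. Coding genes at a mean level below the upper quartile of members had 13.2% and 7.73% genomic reads, and the 153 members below that level had 28.5% (26.3 to 30.8%) and 25.4% (22.2 to 28.8%). Per gene, the median was 11.1% and 0% in these members and 3.70% and 0% in these coding genes. In replicate 2 the median gene of either set thus had no genomic read.

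The antisense type carried most of this signal. Genomic models held 63.5% of its reads in replicate 1 and 51.9% in replicate 2. These pooled shares lean on a few genes, such as Gm43126 with 258 and 42 genomic reads and Tbx3os1 with 146 and 30. The genomic class led in 25 of the 68 antisense members. The lincRNA type had 13.7% and 17.2%, processed_transcript 8.54% and 7.99%, and the bidirectional type 2.13% and 5.41%. By members, 32 had every read in the genomic class in both libraries, all with single-exon leading models, and 16 of the 32 are antisense genes. In 9 of the 32 at least 50% of the leading model lay in coding exons of the opposite strand. Another 78 had no genomic read, 28 had only annotated reads and 57 had no annotated read. The class with most reads was annotated for 111 members, genomic for 48, ISM for 19, NNC for 18 and NIC for 9.

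**Figure D4:**
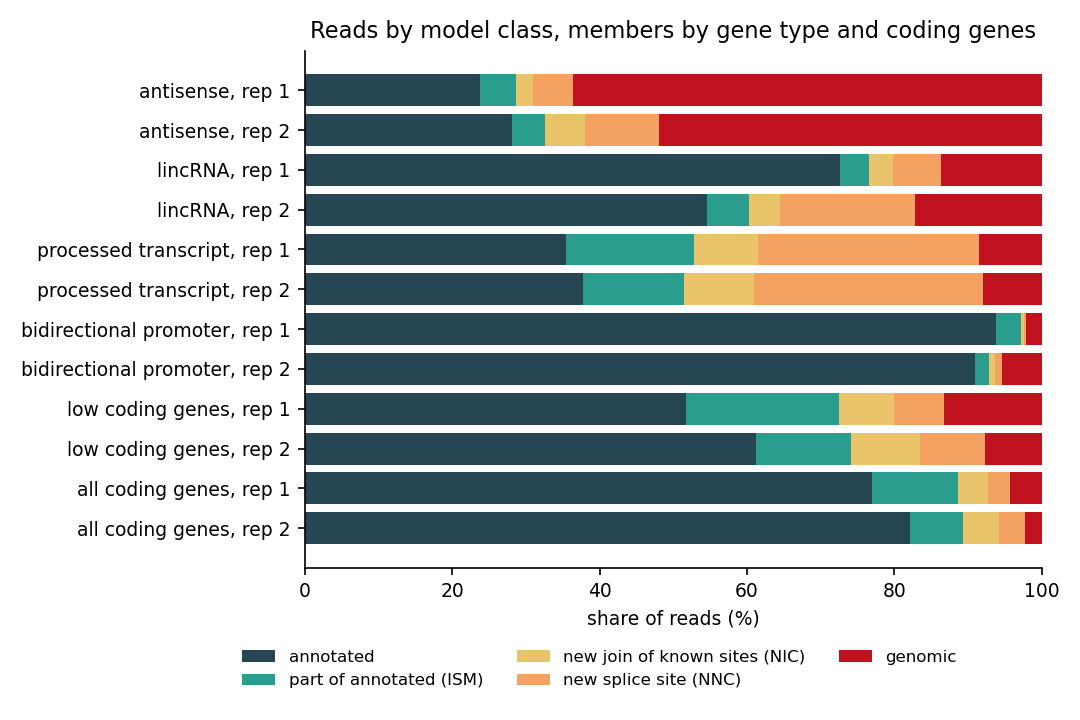
Share of reads (%) by model class for 4 gene types of members, for coding genes below the upper quartile of member levels and for all detected coding genes, each in replicates 1 and 2. Genomic reads (red) hold 63.5% and 51.9% of the antisense type and under 18% of the other member types.

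Among members with at least 20 reads in each library, Gm43126, Gm26724, Gm20659, Tbx3os1 and Tmem250-ps had the highest genomic shares. Gm43126, opposite the cyclin D2 gene Ccnd2, had 258 and 42 reads, all in a single-exon model of 3044 bases in replicate 1 and of 2979 bases in replicate 2. In replicate 1 that model (chr6:127125784-127128827) lay wholly within exons of Ccnd2, which had 325 and 49 reads of its own. Gm20659 had 56 and 20 reads, all in single-exon models, and Dusp3 opposite it had 51 and 19. Its model in replicate 1 lay wholly opposite exons of Dusp3. Gm26724 had 64 and 32 reads opposite Lemd2, which had 469 and 122. For Tbx3os1, a model of 133 bases at its 5′ end (chr5:119671233-119671365) held 144 of 155 reads in replicate 1 and 25 of 38 in replicate 2, and it lay wholly opposite exons of Tbx3, with 90 and 60 reads. Most of the remaining Tbx3os1 reads were in other classes. How the strand of a read was set is not given in the sources used here, so reads of these genes and of the gene opposite cannot be told apart with certainty.

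Tmem250-ps, a coding gene in RefSeq, had 30 of 43 reads genomic in replicate 1 and 6 of 21 in replicate 2. The lowest genomic shares, at 0%, included AY036118, Gm42418, Norad, Gas5 and 1810058I24Rik, a coding gene in RefSeq. Sites internal to the transcript where priming could occur were not examined, since no genome sequence was used here.

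Most members with introns were read as spliced RNA. Of 182 members with an annotated intron, 133 had reads across one of their own introns in both libraries and 43 in neither. Spliced models held 54.1% of member reads in replicate 1 (exact 95% binomial bounds 52.8 and 55.4%) and 62.8% in replicate 2 (60.6 and 65.0%), against 92.2% and 95.3% for coding genes. Coding genes below the upper quartile of member levels had 81.5% and 88.5%. In 81 members the most-read model had 1 exon.

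Spliced forms outside the annotation were shared by the libraries in 12 members. With at least 3 reads in both, 15 such forms held 634 reads in replicate 1 and 265 in replicate 2. Cct6a took most of them. A form with 13 exons and a 50376-base intron outside M21 (chr5:129794561-129844936) held 417 of its 475 reads and 134 of 148. Gm28382 followed with 34 of 77 and 52 of 89 in the form shown above. Gm49708 had 32 of 51 and 21 of 25 in a form of 2 exons, and C4a had 35 and 10 reads in a new join of known introns.

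A further Cct6a form, with another intron of 50365 bases, had 29 and 8 reads. Of the remaining shared forms, none had over 15 reads in a library. Speer9-ps1 had 14 and 6, Snhg5 15 and 4, 5430405H02Rik 12 and 3 and Gm39090 6 and 6. Lppos, which starts opposite Lpp, had 2 new forms with 8 and 4 reads each, whose introns of 246 and 251 bases share their 3′ border. Where annotated transcripts cover both sides, the joined exon ends could be read. They are given with the end of the upstream exon in lower case and the start of the downstream exon in capitals.
Cct6a, intron chr5:129794605-129844969: agacaccatgcaaaaGTTCTTGCGCAAAAC
Gm39090, intron chr7:127692030-127697081: caaacttctaatcagGAGAAGAAAAGCTAT
A530072M11Rik, intron chr4:16164192-16210860: ccagtctggtgtcagAGTTTCCTGAGTCCT
Gm43305, intron chr14:54293534-54296108: tttctgaagacccagCTCACTTACAGGCCC
Tmem147os, intron chr7:30729855-30732413: agtcaggaacgcgagGACTTGAGAACGTGG
Tmem147os, intron chr7:30732762-30734703: ctcttactttaccagGTTGAGAGTACTTCG

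The share of a gene's main transcript was compared between libraries where each had at least 50 reads, which left 4 members. None was called by Fisher's exact test with Benjamini-Hochberg adjustment over all genes (threshold 0.05, shift of 10 percentage points), where 0.742% of all 1887 genes were. With no minimum shift the count was again 0, against 1.01% of all genes. At an unadjusted p under 0.05 there was 1, Tmem134, whose most-read annotated transcript took 61 of 134 reads (45.5%) in replicate 1 and 12 of 53 (22.6%) in replicate 2 (adjusted p = 0.213, Fisher's exact test). At 20 reads in each library 0 of 12 members were called, against 0.591% of 4062 genes, and 3 (Tmem134, Gm28382 and Norad) had an unadjusted p under 0.05. At either minimum the share of all genes with an unadjusted p under 0.05 was not computed, so these counts have no background beside them. Gm42418 at both minimums and AY036118 at the lower one had 100% of their reads on 1 transcript in both libraries, so no shift could be seen in them.

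The last comparison set replicate 2 against replicate 1. It compares these 2 libraries, not conditions. All 10170 genes whose reads summed to 10 or more were compared by Fisher's exact test, two-sided, and p-values were adjusted by Benjamini-Hochberg. Called genes passed 0.05 after adjustment and differed by 2-fold or more. Of the 205 members, 159 could be tested and 10 (6.29%) were called, against 9.55% of all genes, a share below that background. Without the fold minimum 13 of the 159 passed, against 17.9% of all genes. The 3 added were Cct6a, Tbx3os1 and Gm20427, with log2 ratios of -0.41, -0.75 and -0.96. Before adjustment, 25 of the 159 had a p under 0.05 by the same test. The share of all genes at that threshold was not computed, so this count has no background beside it. Since a member needed 3 reads in each library, large differences among low genes could not enter. The median log2 ratio of replicate 2 to replicate 1 was -0.01 in tested members and -0.06 in all tested genes. Over all 200 genes of these 6 types that could be tested, members or not but without the 7 left out by name, it was -0.32, and 15 were called, 12 lower and 3 higher in replicate 2.

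**Figure D5:**
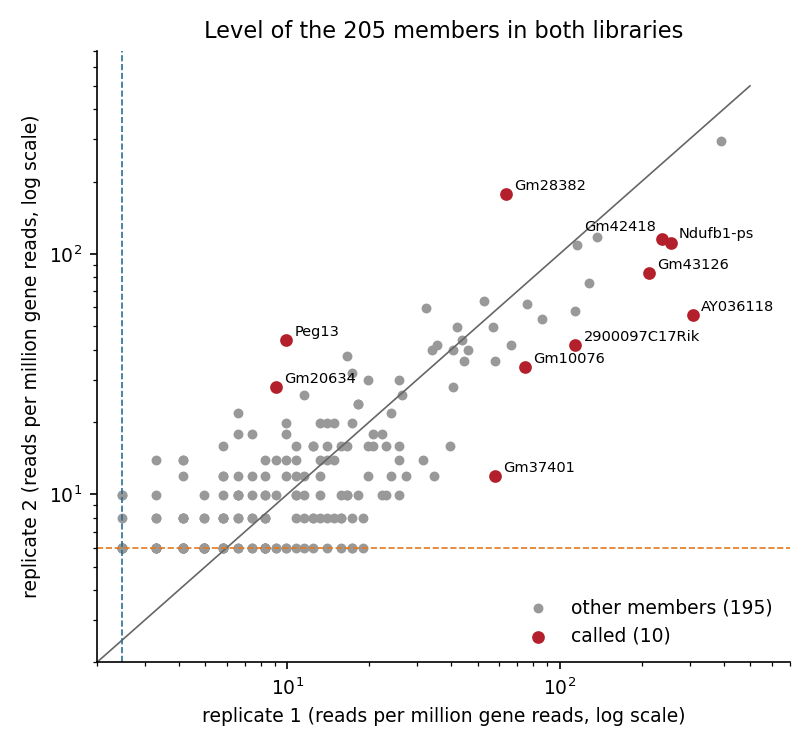
Level of the 205 members in replicate 1 (horizontal) and replicate 2 (vertical), in CPM on log scales. The line marks equal levels, dashed lines mark 3 reads in each library, and red points are the 10 called members. Gm28382, Peg13 and Gm20634 lie above the line and the other 7 below.

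There were 7 calls lower in replicate 2, where 3.59% of all genes were called lower. AY036118 stood at 308.4 CPM in replicate 1 and 55.7 in replicate 2, a log2 ratio of -2.45 (counting SE 0.28, adjusted p = 2.7e-26, Fisher's exact test). Gm42418 from the same ribosomal locus had a log2 ratio of -1.04 (SE 0.21). Gm37401, opposite Rhoa, had 70 and 6 reads and a log2 ratio of -2.17 (SE 0.59). All 70 lay in a genomic model at chr9:108335793-108337417 and all 6 in another at chr9:108337412-108337934. These models overlap only at their ends, so the ratio compares reads of largely different stretches. Gm43126 stood at -1.34 (SE 0.24), Norad at -1.42 (SE 0.33), Ndufb1-ps at -1.19 (SE 0.21) and Gm10076 at -1.10 (SE 0.38). Of these 7, Norad is the only one that is neither coding, pseudogene, ribosomal nor wholly genomic in its reads.

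There were 3 calls higher in replicate 2, where 5.96% of all genes were called higher. Gm28382 stood at 63.7 CPM in replicate 1 and 177.1 in replicate 2, a log2 ratio of 1.47 (SE 0.22, adjusted p = 4.5e-09, Fisher's exact test). Peg13 stood at 9.92 and 43.8 CPM, a log2 ratio of 2.11 (SE 0.51, adjusted p = 0.0004). Gm20634 had 11 and 14 reads, a log2 ratio of 1.60 (SE 0.57, adjusted p = 0.0399). The chromaffin list was lower and the steroid list higher in replicate 2, and their part in these differences was not tested. Xist, at -1.10 (SE 0.62), and Snhg9, at -1.44 (SE 0.61), were not called, with adjusted p of 0.236 and 0.0554 by the same test.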

How the data were processed

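RNA of 2 adrenal libraries of 1 group was analysed. The authors deposited whole-number read counts per transcript model, not normalised, and other values (exon numbers, lengths and coordinates of models), on mm10 with GENCODE M21 per the readme files deposited with them. For aligner, platform and tool versions, nothing is given in the sources used here. Counts were summed per gene over all model classes and scaled to the reads of annotated nuclear genes (spike-ins, mitochondrial and new genes left out). Long reads carry no molecular identifiers here, so intervals (exact Clopper-Pearson, 95%) and the limit of 3 counts cover counting error only. Libraries were compared per gene by Fisher's exact test (scipy 1.17.1) with Benjamini-Hochberg adjustment over all genes, with 0.5 added reads for log2 ratios. The test was checked on simulated counts that carried counting error only. It covers that error and estimates no spread between libraries or animals, so a difference between these 2 libraries may be technical. Main transcript shares were tested likewise. New forms were matched by intron coordinates. Copies were sought with BLAST 2.17.0. Promoter and microRNA sequences came from RefSeq (GRCm38.p6) and exon sequences from M21 transcripts.

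Members and gene lists were chosen with earlier results of these data known. Named genes were the 15 highest by mean, the called members with the largest ratios (up to 6 each way), listed genes, the 8 with most reads in shared new forms, the 6 antisense members highest against their partner, and the 5 highest and 5 lowest genomic shares. Others were chosen after their values were seen. Alternatives included DESeq2 1.42.0 size factors (median of ratios), TMM factors of edgeR 4.0.16, read minimums, model classes, thinning the deeper library and leaving out a library.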

Additional observations from a re-analysis of the deposited data

How the results depend on the processing

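No paired analysis was possible because there is 1 group. The number of members was 232 without replicate 1 and 516 without replicate 2, 571 at 1 read in each library, 43 at 10 reads and 85 on annotated models only. The summed level ranged from 4066 to 6285 CPM when 1 library was left out, and was 2026 CPM on annotated models and 3353 CPM without genomic models. Genomic shares ranged from 22.0 to 29.9% with 1 library left out, with 4.55% for the median member and 26.9% without the 3 members with most reads. Spliced shares ranged from 51.0 to 62.2% with 1 library left out, with 70.8% for the median member. Shared new forms numbered 73 at 1 read and 4 at 10 reads. The median level of named members, 34.2 CPM, ranged from 31.8 to 34.7 CPM with 1 library left out, and was 9.35 CPM on annotated models and 19.3 CPM without genomic models. Of 47 named members, 13 had no read on annotated models and 7 had none without genomic models. Calls between libraries numbered 9 to 15 over all alternatives. All 10 calls were kept under TMM and median-of-ratios scaling. Gm20634 was not called with no read minimum (adjusted p = 0.0657, Fisher's exact test) or after thinning (0.234), and Gm10076 not after thinning (0.0967). The median log2 ratio ran from -0.41 (at least 50 reads) to 0.24 (no read minimum), so its sign depends on the setting. In replicate 2, 63 of 205 members had exactly 3 reads.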

Other observations

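Of other noncoding types, 3 were counted. Of 3219 TEC genes (loci awaiting experimental support), 6 had at least 3 reads in each library, with 50 reads in replicate 1 and 22 in replicate 2 together. Gm38345 had 16 and 3 reads, 9330162G02Rik had 13 and 7 and Particl had 11 and 3. None of 3 genes typed 3prime_overlapping_ncRNA and none of 2 typed macro_lncRNA passed the minimum.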
